A study of Mus musculus with 18 samples.

Results

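Transcripts of the immunoglobulin genes and of the J chain were followed in mouse heart through 70 probe sets of an Affymetrix U74Av2 array, out of 12422 probe sets that are not controls. A probe set was included if every gene symbol given for it in the platform annotation belonged to an immunoglobulin heavy, kappa or lambda locus, or was Jchain, whatever its signal. By symbol, 28 were heavy chain constant region probe sets, 8 heavy chain variable, 31 kappa and 2 lambda, and 1 was Jchain. Of these, 60 carried 1 symbol and 10 carried several.

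The series sets the hearts of FVB mice beside those that carry a tumour necrosis factor alpha (TNF) transgene, which the labels call cardiac-specific without naming its promoter. FVB mice were measured at 3 weeks of age, with 2 distinct arrays from females (the columns of replicates 1 and 2 hold identical values and were counted once) and 3 from males. TNF transgenic mice were measured at 3 weeks (3 females and 3 males), at 13 weeks (3 males) and at 40 weeks (3 females). The labels do not say whether replicates are separate mice, and the p-values cover only the spread among arrays, part of which may be technical. The labels name no other allele or agent in any group, and no FVB mice of 13 or 40 weeks. Age in these data is therefore followed only within transgenic mice, the later ages are of different sexes, and an effect of age alone and an effect of longer exposure to the transgene cannot be told apart.

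Antibodies are built from heavy chains and light chains, and each chain joins a variable region, which binds antigen, to a constant region. Ighm, Ighd, Ighg3 and Igha are symbols for the constant regions of IgM, IgD, IgG3 and IgA, Igkc and Iglc1 for those of the kappa and lambda light chains, and Ighv and Igkv for variable segments. B cells carry antibody on their surface as part of the B cell receptor, and plasma cells, which arise from them, make and secrete it in bulk. The J chain links IgM and IgA into polymers and is made mainly by cells that secrete antibody. Healthy heart muscle holds few cells of this lineage.

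Jchain was the only one of 33 member symbols with an entry in the RefSeq promoter table (GRCm38.p6), and its upstream region is shown because its transcript rose at both later ages. The 250 bases before its annotated start lie at chr5:88527898-88528147 on the minus strand, and the sequence reads 5′ to 3′ toward the start, with E box letters (CANNTG, a pattern bound by basic helix-loop-helix factors) in capitals.
Jchain: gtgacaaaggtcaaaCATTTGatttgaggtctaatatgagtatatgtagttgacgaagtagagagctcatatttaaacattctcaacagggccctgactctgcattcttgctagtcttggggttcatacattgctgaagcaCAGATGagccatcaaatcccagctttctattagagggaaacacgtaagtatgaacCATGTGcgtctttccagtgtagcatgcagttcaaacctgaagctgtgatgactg
The window holds 3 E box matches, and 66.2% of 32851 upstream windows of the same length hold at least 1. The octamer ATGCAAAT, found in many immunoglobulin promoters, was searched on both strands and is not in these letters. It is in 1.6% of the windows.

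Signals below 44.675, the 25th percentile of all values, were set to that floor before taking log2, a choice that makes values below it equal in the tests. Of the 70 probe sets, 67 were above the floor on at least 1 array and were tested together with all other such probe sets, 11898 in all. Only 15 were above it on every array. The annotation is an old one and sorts these probe sets poorly: 16 carry the symbol Ighm alone, 7 Ighg3, 3 Igha and 1 Ighd, and none carries an IgE symbol. Rearranged antibody sequences share segments, and 32 of the 70 probe sets have names ending in f_at, which in Affymetrix naming marks probes shared by a sequence family. Probe sets that share a symbol, a family or a segment are therefore not independent of each other, and which gene of a family gave the signal is uncertain. Each signal below belongs to its probe set, and probe sets are not ranked against each other by level.

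FVB female replicate 1 stood apart from the other arrays. Its rank correlation with them ran from 0.775 to 0.856, and 7.33% of its probe sets were at the floor, against 23.69% to 28.31% on the others. It was the highest of the 5 FVB arrays for 61 of the 70 immunoglobulin probe sets (87.1%), and for 49% of all probe sets tested. Xist, a transcript of the inactive X chromosome in females, had signals of 1380.6 and 2705.7 on FVB male replicates 1 and 2 and of 5.9 on replicate 3. Eif2s3y, a Y-linked gene, had signals of 298.7, 67.4 and 544.9 on those 3 arrays, of 115.3 and 40.9 on the FVB female arrays, of 347.8 to 484.4 on transgenic males and of at most 30.8 on transgenic females. The array of FVB male replicate 1 thus carried both signals, and that of replicate 2 was like a female array in both, and the cause was not tested. Counts that rest on FVB mice are given with and without FVB female replicate 1 and FVB male replicates 1 and 2, called the 3 doubted FVB arrays below. The labelled tissue was borne out by its own markers: the summed signal of 12 cardiomyocyte genes was at least 137079 on every array.

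Apart from FVB female replicate 1, the number of immunoglobulin probe sets above the floor separated the later ages from the rest. It was 52 to 58 of 70 on the 3 arrays of 13 weeks and 52 to 57 on the 3 of 40 weeks, and 28 to 35 on the 6 transgenic arrays of 3 weeks. On the FVB arrays it was 22 to 34, except for FVB female replicate 1 with 62. Over all probe sets the share above the floor was 71.7% to 76.3% on the 16 other arrays. A tissue extract cannot separate more cells of a type from more RNA in each cell, and that holds for every difference below.

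**Figure D1:**
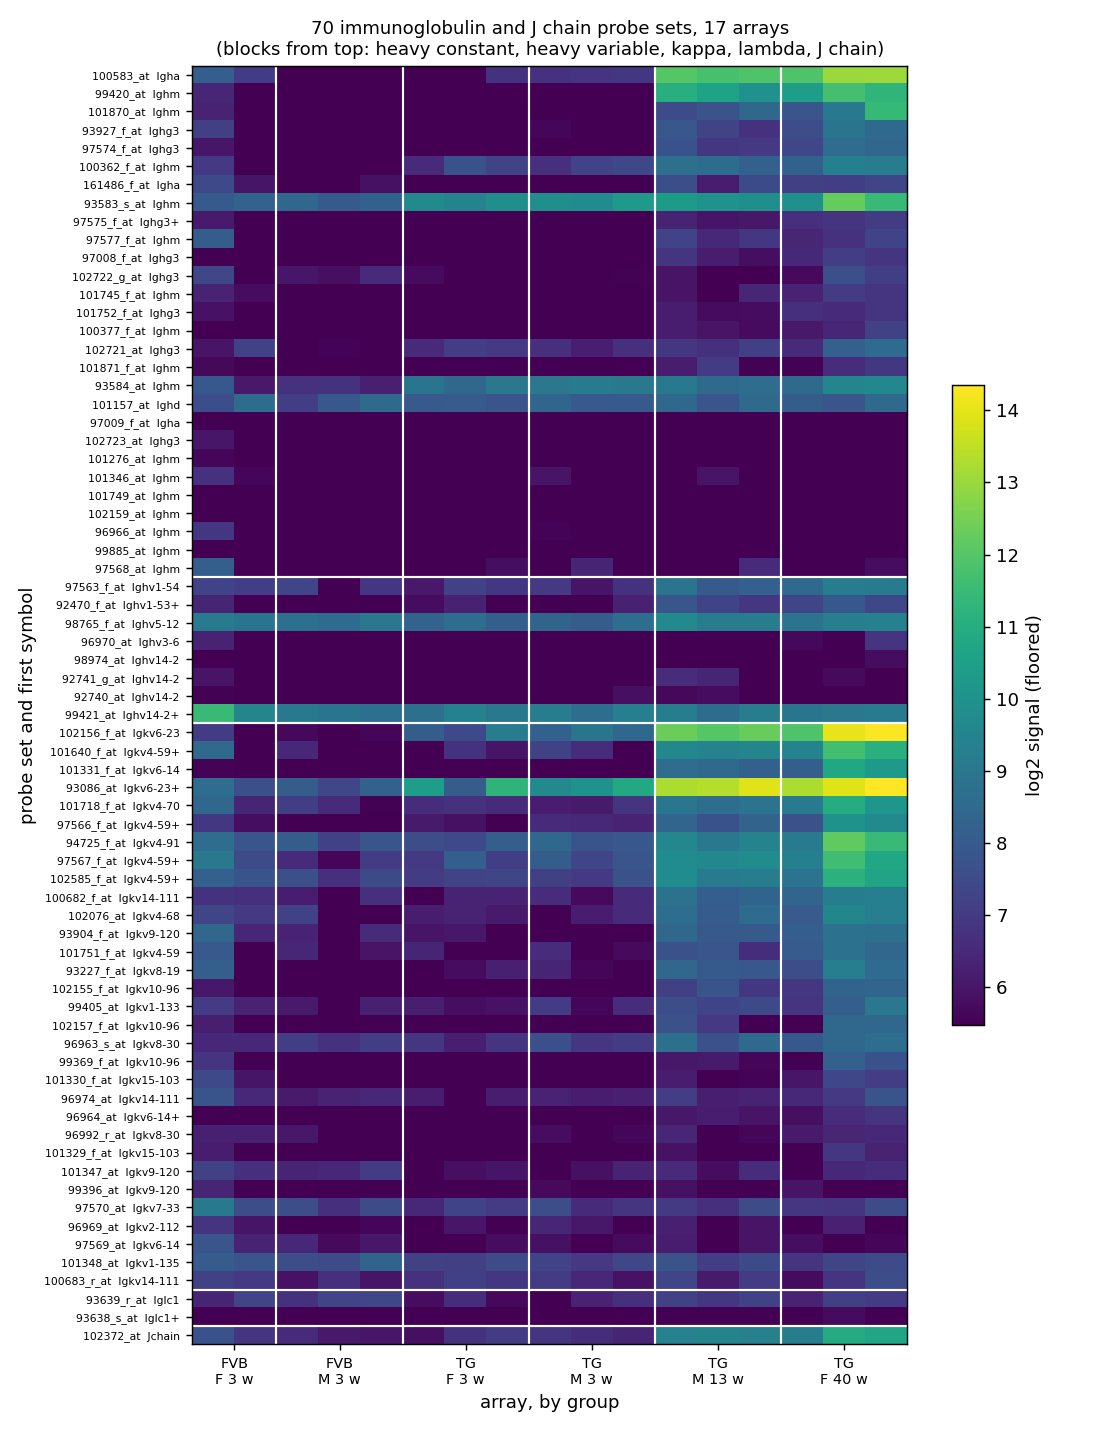
Log2 signal, after the floor, of the 70 immunoglobulin and J chain probe sets (one line each, grouped by class) on the 17 distinct arrays (columns, grouped by genotype, sex and age, with F for female, M for male and TG for TNF transgenic). Signals are low at 3 weeks in both genotypes for most lines, except on FVB female replicate 1, with 62 of 70 above the floor. The 6 columns of 13 and 40 weeks are brighter than the other columns in the heavy constant, kappa and J chain blocks.

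At 3 weeks the first comparison asks how the immunoglobulin transcripts differed between TNF transgenic and FVB hearts, as the mean of the difference in females and in males. They moved both ways: 5 probe sets rose, namely 3 of 14 Ighm and 2 of 31 kappa, and 7 fell, namely 5 kappa variable, 1 heavy variable and Iglc1. Most members of both classes had log2 differences below 0, with 9 of 14 and a median of -0.13 for Ighm and 25 of 31 and a median of -0.19 for kappa. The 7 of 67 that fell stand against 18% of all probe sets. Together 12 of 67 (17.9%) were called in limma at an adjusted p under 0.05, against 34.2% of all probe sets, and the 5 that rose are 7.46% of 67, against 16.3%. The immunoglobulin share is thus below the background in this comparison, and the median log2 difference of -0.17 lay close to that of all probe sets, -0.15. In 3 of 67 the transgenic arrays all lay above the FVB arrays and in 1 all below, against 9.64% and 6.48% of all probe sets.

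Ighm, the IgM heavy chain constant region, was read by 2 probe sets that were above the floor on every array. For 93584_at the signals were 239.8 and 68.1 in FVB females and 107.4, 109.1 and 76.4 in FVB males. In transgenic mice of 3 weeks they were 485.2, 353.0 and 505.3 in females and 511.5, 580.7 and 520.8 in males. All 6 transgenic arrays were above all 5 FVB arrays, and the highest FVB signal came from FVB female replicate 1. From means of 493 ± 75.7 (SD, n = 6) and 120 ± 69.3 (SD, n = 5), transgenic hearts were higher by 2.13 on the log2 scale (SE 0.29, adjusted p = 9.4e-05 in limma).

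For Ighm 93583_s_at the FVB signals ran from 253.0 to 355.1 with a median of 299.6, and the transgenic signals of 3 weeks from 690.9 to 1212.5 with a median of 927.8. Again the groups did not overlap, and here FVB female replicate 1, at 255.3, was among the low arrays. On the log2 scale they differed by 1.65 (SE 0.31, adjusted p = 0.0011 in limma). Another Ighm probe set, 100362_f_at, lay below the floor on 4 FVB arrays and at 123.5 on FVB female replicate 1, and between 92.8 and 211.8 on the transgenic arrays. Its log2 difference of 1.31 (SE 0.29, limma adjusted p = 0.0038) is a lower limit of its size.

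Among the kappa chains, Igkv6-23 102156_f_at had FVB signals of 131.4 and 38.6 in females and 51.5, 34.0 and 48.1 in males. The transgenic signals were 273.8, 174.7 and 591.7 in females and 301.3, 486.7 and 352.5 in males. Every transgenic array was above every FVB array, and the transgenic females differed widely among themselves. Its difference on the log2 scale was 2.47 (SE 0.43, adjusted p = 0.00069 in limma), a lower limit since 2 FVB arrays were at the floor.

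The probe set 93086_at carries 5 kappa symbols, Igkc among them. Its FVB signals were 398.8 and 200.5 in females and 270.8, 164.0 and 302.1 in males, and its transgenic signals were 1359.4, 275.2 and 2425.7 in females and 849.2, 1061.6 and 1886.1 in males. Transgenic female replicate 2, at 275.2, lay within the FVB range and the other 5 transgenic arrays lay above it. Its difference on the log2 scale was 2.05 (SE 0.47, adjusted p = 0.0045 in limma).

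The 7 that fell had log2 differences between -1.11 for Igkv9-120 93904_f_at (SE 0.31, limma adjusted p = 0.014) and -0.53 for Ighv5-12 98765_f_at (SE 0.15, limma adjusted p = 0.016). Igkv9-120 101347_at at -0.96, Igkv6-14 97569_at at -0.93, Iglc1 93639_r_at at -0.91, Igkv7-33 97570_at at -0.84 and Igkv1-135 101348_at at -0.63 lay between them. In 6 of these 7 the FVB and transgenic arrays overlapped, and the exception was 101347_at. Iglc1 93639_r_at, the lambda light chain constant region, had FVB signals from 83.5 to 165.2 and transgenic signals from 22.8 to 102.9.

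Calls of the falls were lost with an array left out more often than calls of the rises. The 5 that rose were called with each array left out in turn and also without the 3 doubted FVB arrays, where their log2 differences were 2.76 for Ighm 93584_at, 1.58 for Ighm 93583_s_at, 1.79 for Ighm 100362_f_at, 2.92 for Igkv6-23 102156_f_at and 2.13 for 93086_at. Of the 7 that fell, 2 were called without FVB female replicate 1. Without the 3 doubted FVB arrays 3 were called, namely Iglc1 93639_r_at (log2 difference -1.27), Igkv9-120 93904_f_at (-0.88) and Igkv1-135 101348_at (-0.84). The other 4 kept their sign without passing the test, with -1.08 for Igkv9-120 101347_at, -0.61 for Igkv7-33 97570_at, -0.60 for Igkv6-14 97569_at and -0.59 for Ighv5-12 98765_f_at, so that 4 of the 7 falls were then larger in size. Without FVB female replicate 3, which leaves replicate 1 as the only FVB female array, 22 fell and 6 rose. With weights estimated for each array, both FVB female arrays received 0.0179 and no immunoglobulin probe set was called, with 15 of 11898 called in all.

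The constant regions of IgD and IgG3 and the J chain were not called in the mean of both sexes. Ighd 101157_at, the IgD heavy chain, had FVB signals from 140.9 to 394.9 and transgenic signals from 223.6 to 332.6. None of the 7 Ighg3 probe sets was called, and at an unadjusted limma p under 0.05 the count was 0 as well. Jchain 102372_at had signals of 211.2 and 115.2 in FVB females, 96.1, 67.5 and 65.0 in FVB males, 56.9, 109.8 and 132.3 in transgenic females and 111.5, 101.0 and 84.0 in transgenic males. The J chain groups overlapped, and the highest array was again FVB female replicate 1.

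Within each sex, the same 2 Ighm probe sets (93583_s_at and 93584_at) and Igkv6-23 102156_f_at rose in both. In females 3 rose and 9 fell of 67, against 12.3% and 15% of all probe sets and 27.3% in both directions. The falls were in Igha 100583_at (log2 difference -1.67), Igkv9-120 93904_f_at (-1.58), Igkv6-14 97569_at (-1.49), 99421_at with 4 heavy chain symbols (-1.42), Igkv7-33 97570_at (-1.40), Igha 161486_f_at (-1.23), Igkv15-103 101330_f_at (-1.22), Igkv9-120 101347_at (-1.17) and Igkv8-30 96992_r_at (-0.78). The 99421_at signal was 2799.0 on FVB female replicate 1 and 392.1 to 723.4 on the 16 other arrays. Without FVB female replicate 1 none of the 67 fell and 3 rose, without transgenic female replicate 1 or 3 the count was 4, and without FVB female replicate 3 it was 27. In males 6 rose and none fell, against 11.3% and 7.9% of all probe sets and 19.2% in both directions, and the count was 4 to 8 with an array left out in turn. The male rises added Ighm 100362_f_at, Igha 100583_at and 93086_at. Without the 3 doubted FVB arrays, 2 rose in females and 3 rose and 2 fell in males. Of the 3 rises seen in both sexes, Ighm 93584_at was then called in both (log2 differences 2.70 and 2.81). Igkv6-23 102156_f_at was called in males (2.95) and not in females (2.88, limma adjusted p = 0.056), and Ighm 93583_s_at in neither (1.41 in females, limma adjusted p = 0.19, and 1.76 in males, 0.11). Of the other male rises Ighm 100362_f_at was called (1.76), and 93086_at (1.98, limma adjusted p = 0.23) and Igha 100583_at (1.45, 0.12) were not.

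Igha, the IgA heavy chain constant region, was the only immunoglobulin transcript whose difference between genotypes itself differed by sex (1 of 67, against 0.429% of all probe sets, with 0.361% in its direction). For Igha 100583_at the signals were 283.2 and 130.2 in FVB females and 32.2, 25.3 and 31.3 in FVB males. Transgenic signals of 3 weeks were 18.8, 26.0 and 109.2 in females and 106.4, 112.8 and 119.9 in males. FVB females were thus high and FVB males below the floor, while transgenic males were above it and transgenic females were mostly below. The log2 difference was -1.67 in females and 1.34 in males, and the contrast between them was -3.01 (SE 0.56, limma adjusted p = 0.039). It was called in 4 of 17 fits with an array left out, its adjusted p reached 0.12 without FVB female replicate 1, and without the 3 doubted FVB arrays it was 0.24.

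**Figure D2:**
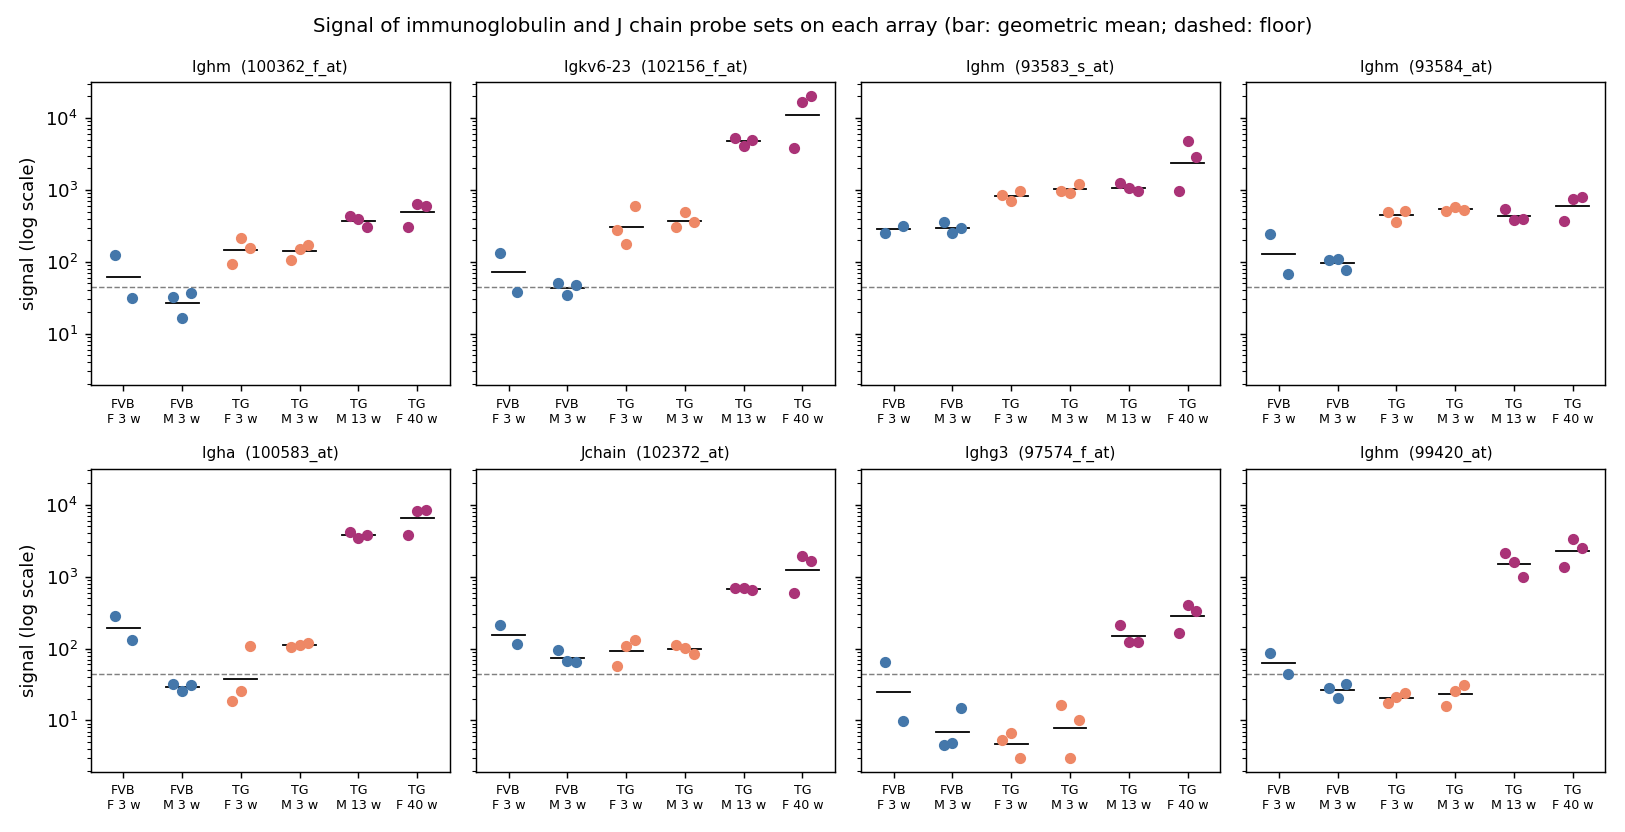
Signal on a log axis of 8 probe sets on each distinct array (points), by genotype, sex and age, with the geometric mean of each group as a bar and the floor of 44.675 dashed. Ighm 93583_s_at and 93584_at are already higher in transgenic than in FVB hearts at 3 weeks, while every 13- and 40-week point of Igha, Ighm 99420_at, Ighg3 and Jchain lies above every 3-week point.

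Between 3 and 13 weeks in transgenic males, immunoglobulin transcripts rose and none fell: 12 of 67 were called higher, against 0.294% of all probe sets, and 0.126% were called lower. Probe sets with the symbols Ighm, Igha and Ighg3, kappa probe sets and Jchain were among them. Which gene of a family gave the signal is uncertain. Over all probe sets 35 were called higher, so immunoglobulin and J chain probe sets were 34.3% of everything that rose, and 14 of the 20 highest log2 differences were theirs. The median log2 difference was 0.68 for the 67 and 0.00 for all probe sets. In 37 of the 67 the 13-week arrays all lay above the 3-week arrays, which was so for 5.76% of all probe sets.

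The 2 highest were heavy chain constant regions. Ighm 99420_at had signals of 16.1, 25.9 and 31.3 in males of 3 weeks, all below the floor, and of 2165.1, 1596.7 and 994.5 at 13 weeks. It was at least 33.8-fold higher at 13 weeks (log2 difference against the floor 5.08, SE 0.32, limma adjusted p = 6.5e-06). Igha 100583_at had signals of 106.4, 112.8 and 119.9 at 3 weeks and of 4123.4, 3473.6 and 3802.0 at 13 weeks. The 3 arrays of each age lay close together and far from the other age, with a log2 difference of 5.07 (SE 0.37, limma adjusted p = 2e-05).

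Ighg3 97574_f_at had signals of 16.2, 3.0 and 10.3 at 3 weeks and of 211.6, 122.1 and 123.3 at 13 weeks. It was at least 3.29-fold higher (log2 difference against the floor 1.72, SE 0.28, limma adjusted p = 0.018), and it was the only one of the 7 Ighg3 probe sets called at this age. Jchain 102372_at had signals of 111.5, 101.0 and 84.0 at 3 weeks and of 685.3, 702.9 and 651.0 at 13 weeks. The J chain arrays were tight within each age, and they differed by 2.79 on the log2 scale (SE 0.41, adjusted p = 0.012 in limma).

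Of 31 kappa probe sets, 7 rose. Igkv6-23 102156_f_at went from 301.3, 486.7 and 352.5 to 5245.5, 4105.1 and 5000.1, a log2 difference of 3.67 (SE 0.58, limma adjusted p = 0.016). The Igkc-bearing 93086_at went from 849.2, 1061.6 and 1886.1 to 9840.9, 10498.1 and 15513.8, a log2 difference of 3.29 (SE 0.63, limma adjusted p = 0.042). Neither pair of groups overlapped. Igkv6-14 101331_f_at, below the floor on the 3 arrays of 3 weeks, was at least 7.99-fold higher at 13 weeks. The other kappa segments that rose were Igkv9-120 93904_f_at at 2.64, Igkv4-68 102076_at at 2.40, Igkv14-111 100682_f_at at 2.13 and Igkv10-96 102155_f_at at 1.81 on the log2 scale. In heavy variable segments Ighv5-12 98765_f_at rose by 1.02, from signals of 273.4 to 408.1 to signals of 598.7 to 833.0.

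The count at 13 weeks depended on single arrays while the direction did not. Igha 100583_at and Ighm 99420_at were called with each of the 17 arrays left out in turn, and the other 10 were not called in at least 1 of those fits. The count was 3, 3 and 4 without replicates 1, 2 and 3 of the 13-week males and 4, 2 and 5 without replicates 1, 2 and 3 of the 3-week males. FVB female replicate 1 is in neither group and enters through the shared estimate of spread, the floor and the set of probe sets tested. Without that array the count was 19. Without the 3 doubted FVB arrays the count was 13, with 9 of the 12 calls kept.

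Ighm probe sets disagreed with each other at this age. Of the 14 tested, 1 was called, and the 2 that separated the genotypes at 3 weeks were not called: 93584_at had signals of 511.5, 580.7 and 520.8 in males of 3 weeks and of 538.3, 376.7 and 399.9 at 13 weeks, and 93583_s_at of 962.5, 893.1 and 1212.5 and then of 1264.1, 1047.4 and 951.8. The ages overlapped in both. The Ighm probe set 100362_f_at, also called at 3 weeks, had signals of 105.1, 152.6 and 170.4 at 3 weeks and of 429.1, 393.0 and 300.5 at 13 weeks, which do not overlap, and did not pass the test (limma adjusted p = 0.194). Ighm 101870_at was at most 9.3 on the 6 transgenic arrays of 3 weeks and at 185.1, 214.6 and 351.8 at 13 weeks, without passing the test (limma adjusted p = 0.149).

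Between 3 and 40 weeks in transgenic females, 28 of 67 rose and none fell, against 0.471% of all probe sets called higher and 0.193% lower. They were 10 of 25 heavy constant, 2 of 8 heavy variable and 15 of 31 kappa probe sets and Jchain, and neither of the 2 lambda probe sets was called. Over all probe sets 56 were called higher, so 50% of them were immunoglobulin or J chain probe sets, as were 12 of the 20 highest log2 differences. The median log2 difference was 1.33 for the 67 and 0.00 for all probe sets. In 40 of the 67 the groups did not overlap with the 40-week arrays above, against 7.47% of all probe sets.

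Igha 100583_at had the highest log2 difference of all probe sets tested. Its signals were 18.8, 26.0 and 109.2 in females of 3 weeks and 3847.9, 8220.2 and 8491.9 at 40 weeks. Its difference on the log2 scale was 6.74 (SE 0.37, adjusted p = 8.1e-07 in limma), a lower limit since 2 arrays of 3 weeks were at the floor. The other 2 Igha probe sets differ from it: 161486_f_at reached 141.4, 136.2 and 160.4 at 40 weeks from below the floor and was not called (limma adjusted p = 0.052), and 97009_f_at was at the floor on all arrays.

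Ighm 99420_at had signals of 17.5, 21.1 and 24.0 at 3 weeks and of 1383.3, 3361.9 and 2499.3 at 40 weeks, at least 50.7-fold higher (log2 difference against the floor 5.66, SE 0.32, limma adjusted p = 8.1e-07). Ighm 101870_at had signals of 4.1, 7.3 and 3.6 at 3 weeks and of 226.0, 530.7 and 2766.7 at 40 weeks. It was at least 15.5-fold higher (log2 difference against the floor 3.95, SE 0.62, limma adjusted p = 0.0069), with the 40-week arrays widely spread. Altogether 4 of 14 Ighm probe sets rose, and the remaining pair, 100377_f_at and 101745_f_at, reached 68.5 to 145.4 and 79.6 to 128.7 from below the floor. The Ighm probe sets that separated the genotypes at 3 weeks were not called: 93583_s_at had signals of 977.4, 4824.1 and 2843.0 at 40 weeks (limma adjusted p = 0.163), 93584_at of 371.2, 745.7 and 790.5, and 100362_f_at of 303.4, 639.6 and 598.2 (limma adjusted p = 0.074).

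The other Ighm probe sets were low. Ighm 97577_f_at was below the floor on the 6 transgenic arrays of 3 weeks and at 155.0, 87.9 and 122.3 at 13 weeks and 86.4, 108.4 and 155.2 at 40 weeks, and 101871_f_at was below it and then at 73.0, 132.5 and 45.9 and at 46.0, 98.3 and 120.5. Neither was called, although their groups did not overlap. Ighm 101276_at and 102159_at were each above the floor on 1 array, 96966_at on 2, 101346_at on 4 and 97568_at on 5, and 101749_at and 99885_at on none. Of these 5 above the floor somewhere, none was called in any comparison, and FVB female replicate 1 was the highest of all 17 arrays in 4 of them.

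The symbol Ighg3 was carried alone by 7 probe sets, of which 4 rose, all of them family probe sets (f_at). Ighg3 93927_f_at had signals of at most 14.5 at 3 weeks and of 191.0, 476.9 and 365.5 at 40 weeks, at least 7.2-fold higher. Ighg3 97574_f_at had signals of 5.4, 6.7 and 3.0 and then of 166.0, 400.2 and 337.8, at least 6.31-fold higher. Ighg3 97008_f_at and 101752_f_at were at least 2.51-fold and 2.31-fold higher. In these 4 the 3-week females were below the floor on every array. The 97575_f_at probe set, which carries Ighg3, Igha and Ighm, was at least 2.56-fold higher. The remaining Ighg3 probe sets were not called: 102721_at had signals of 93.9, 135.2 and 123.2 at 3 weeks and of 92.8, 291.0 and 382.8 at 40 weeks, 102722_g_at of 53.4, 22.7 and 7.8 and then of 52.2, 202.6 and 140.3, and 102723_at was above the floor on FVB female replicate 1 alone, at 64.9. Ighd 101157_at had signals of 247.5, 261.3 and 223.6 at 3 weeks and of 275.8, 224.1 and 372.0 at 40 weeks, which overlap, and was not called at either later age.

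Jchain 102372_at had signals of 56.9, 109.8 and 132.3 at 3 weeks and of 601.4, 1969.5 and 1656.1 at 40 weeks. All 40-week arrays were above all 3-week arrays, and replicate 1 was well below the other 2. Its difference on the log2 scale was 3.74 (SE 0.41, adjusted p = 0.00049 in limma).

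The 2 heavy variable probe sets that rose were Ighv1-54 97563_f_at, from 67.2, 145.0 and 121.8 to 362.9, 598.7 and 547.0 (log2 difference 2.22, limma adjusted p = 0.037), and 92470_f_at, which carries Ighv1-53, Ighv1-72 and Ighm (log2 difference 1.71, limma adjusted p = 0.023). Iglc1 93639_r_at had signals of 54.9, 99.0 and 50.5 at 3 weeks and of 79.7, 144.1 and 132.2 at 40 weeks, which overlap.

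All 5 kappa probe sets with Igkc among their symbols rose, by 2.98 to 4.69 on the log2 scale. The highest of them, 101640_f_at, which also carries Igkv4-59 and Igkv4-72, was below the floor on 1 array of 3 weeks and at 110.3 and 62.6 on the others, and reached 720.5, 3275.5 and 2234.1 at 40 weeks (log2 difference 4.69, SE 0.73, limma adjusted p = 0.0063). The 93086_at probe set had signals of 1359.4, 275.2 and 2425.7 and then of 9807.0, 15548.9 and 20831.7 (log2 difference 3.92, SE 0.63, limma adjusted p = 0.0078). The groups did not overlap in either.

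By variable family, 7 of 8 Igkv4 probe sets rose, 4 of them carrying Igkc as well, and these share sequence. Igkv6-23 102156_f_at had signals of 273.8, 174.7 and 591.7 at 3 weeks and of 3847.1, 16824.9 and 20192.4 at 40 weeks, a log2 difference of 5.16 (SE 0.58, limma adjusted p = 0.00061). Igkv6-14 101331_f_at, below the floor on the 3 arrays of 3 weeks, reached 286.3, 1738.0 and 1202.9, at least 18.9-fold higher. A second probe set of the same symbol, 97569_at, had signals of 32.5, 42.3 and 55.4 at 3 weeks and of 56.6, 31.1 and 49.7 at 40 weeks. The lowest rise among the 28 was that of 96964_at (Igkv6-14 and Igkv4-53), at least 1.91-fold. Of the 28, 20 were among the 31 tested family probe sets (f_at) and 7 among the 28 tested probe sets named plainly with at.

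The 40-week count ran from 19 to 37 with an array left out in turn, and 19 of the 28 were called in each of those 17 fits. Without the 3 doubted FVB arrays it was 27, with 23 of the 28 calls kept, and fitting only the 6 arrays compared gave 11.

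**Figure D3:**
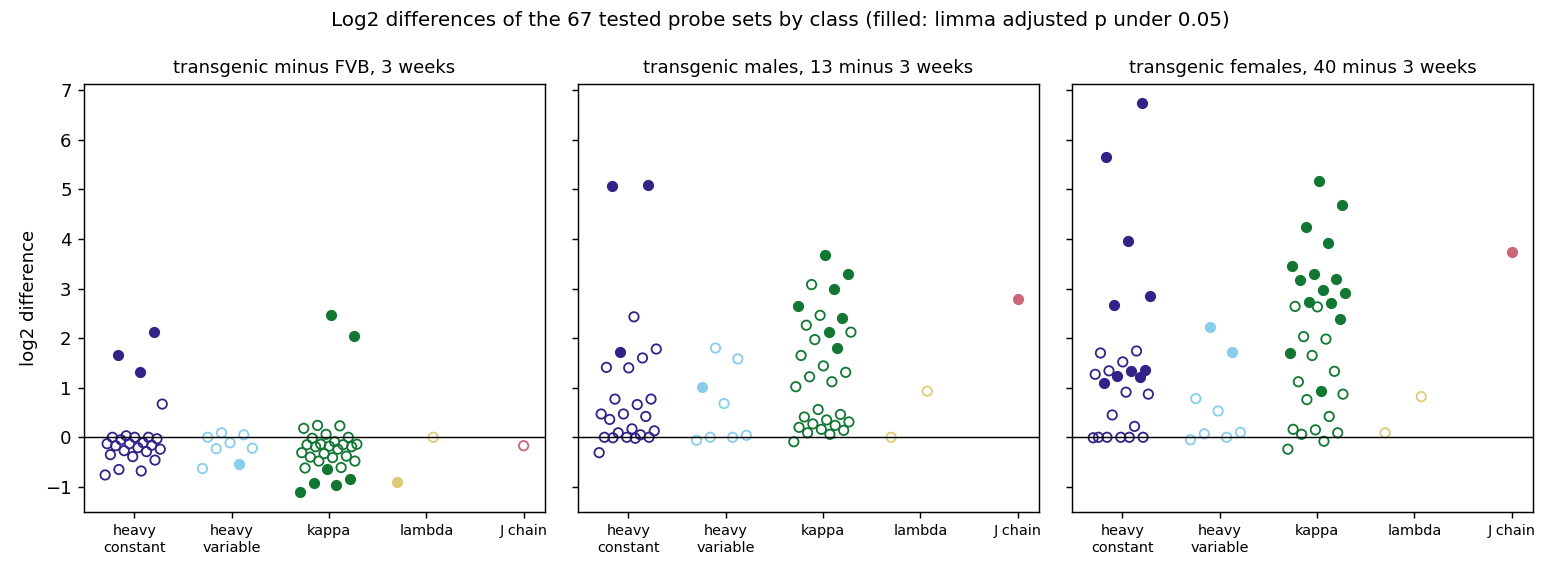
Log2 differences of the 67 tested immunoglobulin and J chain probe sets by class (horizontal spread within a class has no meaning), for transgenic minus FVB at 3 weeks, transgenic males of 13 minus 3 weeks and transgenic females of 40 minus 3 weeks. Filled points passed the limma test at an adjusted p under 0.05: 12, 12 and 28 of 67, with falls only in the comparison of genotypes.

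The comparisons at 13 and 40 weeks share no arrays. Of the 12 called at 13 weeks, 11 (91.7%) were also called at 40 weeks, which is 39.3% of the 28. Over all probe sets 23 were called higher at both ages, 65.7% of the 35 of 13 weeks and 41.1% of the 56 of 40 weeks. Both comparisons use a shared estimate of spread for each probe set, so their calls are not independent. Ighv5-12 98765_f_at was the exception, with signals of 469.7, 616.3 and 642.2 at 40 weeks. The difference between the age changes was tested directly, and limma called 0 of 67, and 0 of 11898 in all. At an unadjusted p under 0.05 there were 8 among the 67, and 354 (2.98%) in all. The median of that difference was 0.55 for the 67 and 0.00 for all probe sets, and it was above 0 in 55 of the 67. Without 40-week female replicate 1 a single immunoglobulin probe set was called.

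The 40-week females were not alike. Replicate 1 was the lowest of the 3 in 55 of the 70 immunoglobulin probe sets (78.6%) and in 27 of the 28 that rose, against 37.9% of all probe sets. Replicates 2 and 3 were both above all 3 males of 13 weeks in 26 of the 28, and replicate 1 was in 3 of the 28. Among all 56 probe sets that rose at 40 weeks, replicate 1 was the lowest in 46, replicates 2 and 3 were both above the males of 13 weeks in 44 (78.6%) and replicate 1 in 15 (26.8%). Over the 67 tested members these last counts were 38 and 6, and over all probe sets tested 9.24% and 18.4%. The 28 were chosen by these same 40-week arrays, so their counts are a description. Igha 100583_at shows the pattern, with replicate 1 at 3847.9, within the range of 3473.6 to 4123.4 seen at 13 weeks, and replicates 2 and 3 at 8220.2 and 8491.9. The share of all probe sets above the floor was 73.5% on replicate 1 and 73.4% and 75.7% on replicates 2 and 3.

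Other genes of the cells that make antibody were read from lists. Of 22 tested genes of the B cell receptor and B lineage, 9 rose (40.9%, against 16.3% of all probe sets) and none fell in transgenic hearts at 3 weeks, and 9 of the 22 had differences below 0. The smallest p were those of Spib, a B lineage transcription factor that other blood cells also make (log2 difference 3.79, limma adjusted p = 1.3e-07), Blnk, which links the B cell receptor to its downstream enzymes (2.85, 8.3e-06), and Ly86, a partner of the receptor CD180 (2.09, 1.1e-05). Several genes that define B cells were not called. Their log2 differences were -0.24 for Cd79a, a signalling chain of the B cell receptor (limma adjusted p = 0.67), -0.08 for Ms4a1, the surface protein CD20 (0.792), -0.10 for Pax5, a B lineage transcription factor (0.67), and -0.56 for Vpreb3 (0.129). Blk, a B cell kinase, fell in females by 1.09 (limma adjusted p = 0.039), and Cd79b, the partner of Cd79a, rose in the mean of both sexes by 1.44 (limma adjusted p = 0.015). Leaving out the 3 doubted FVB arrays, 10 rose and none fell, against 15.1% of all probe sets higher. At 13 and 40 weeks none of the 22 was called in limma, and 3 and 1 had an unadjusted p under 0.05. The share of all probe sets at that unadjusted p is not given for these ages. Such counts, here and for the lists below, are thus a description. Only 0.42% and 0.664% of all probe sets were called at those ages, so 0 of 22 is near the background. The 13-week arrays lay wholly above those of 3 weeks in 3 of the 22 and wholly below in 5. Over all probe sets these shares were 5.76% and 6.26%. The summed signal was 2652 to 6178 on FVB arrays. Of the defining markers, given without regard to the rule for naming genes, Cd79a had signals of 175.6 to 259.4 in transgenic females of 3 weeks and of 240.5, 207.7 and 459.2 at 40 weeks, with 923.2 on FVB female replicate 1 against 120.1 to 294.3 on the other FVB arrays, and Ms4a1 of 201.6 to 280.4 and then of 243.4, 383.1 and 554.5.

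Of 15 genes of plasma cells and antibody secretion, 9 rose (60%, against 16.3% of all probe sets) and 1 fell (against 18%) at 3 weeks. The 1 that fell was Tnfrsf17, with log2 differences of -0.94 in females and -0.55 in males, and it was not called within either sex. In the fit that left out the 3 doubted FVB arrays 7 rose, 6 of them among the 9, and none fell. Pdia4, a chaperone of the endoplasmic reticulum, rose by 1.25 (limma adjusted p = 7.9e-05), Prdm1, the transcription factor Blimp-1 of plasma cells, by 1.55 (0.00013), and Creld2, another protein of the endoplasmic reticulum, by 1.09 (0.00067) on the log2 scale. At 13 and 40 weeks none of the 15 was called, and 1 and 3 had an unadjusted limma p under 0.05. The summed signal was 11006 to 13652 on FVB arrays. Prdm1 had signals of 138.0, 165.1 and 164.5 in transgenic females of 3 weeks and of 182.6, 196.6 and 135.6 at 40 weeks, which overlap.

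Of 17 tested genes that place and feed B cells, 3 rose and 2 fell at 3 weeks. The share called, 29.4%, was near the 34.2% of all probe sets, as was the share that rose, 17.6% against 16.3%. Cxcl13, the chemokine that draws B cells into follicles, rose by 5.23 (limma adjusted p = 1.5e-09) and Cxcr4, a chemokine receptor, by 2.40 (1.1e-07). Ltb, a lymphotoxin subunit, rose by 4.31 in females (limma adjusted p = 0.00023) and by 5.69 in males (5.4e-06), and Ung and Lta fell. There were 4 rises and 2 falls among 15 tested without the 3 doubted FVB arrays. None was called at 13 or 40 weeks in limma, with 1 and 0 at an unadjusted p under 0.05. Of 9 genes of Fc and immunoglobulin transport receptors, Fcgr2b, the inhibitory IgG receptor, rose by 3.56 and Fcer1g, a shared signalling chain, by 1.40, and Fcgr1 fell by 0.76 at 3 weeks, 33.3% called against the same 34.2%. Of 7 tested without the 3 doubted FVB arrays, 2 rose and 1 fell. None of the 9 was called at 13 or 40 weeks, with 0 and 1 at an unadjusted limma p under 0.05.

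Markers of other cells moved with genotype too, and their part in the immunoglobulin differences was not tested. The background is 16.3% of all probe sets higher and 18% lower. At 3 weeks 13 of 14 macrophage genes rose (92.9%), with a summed signal of 3603 to 5987 on FVB arrays and 46717 to 58701 on transgenic arrays. Of 14 T cell genes 11 rose and 1 fell, with sums of 1517 to 2506 and 2775 to 5163. Of 12 thymus genes, 6 of them also in the T cell list, 7 rose and 1 fell, with sums of 707 to 2452 and 1406 to 2569. Of 5 genes of lymph node and high endothelium 3 rose, with sums of 243 to 860 and 2038 to 3312. Of 8 erythroid and blood genes 4 fell, with sums of 41663 to 63066 and 22980 to 37220, and of 12 cardiomyocyte genes 11 fell and 1 rose. Without the 3 doubted FVB arrays, where 15.1% of all probe sets were higher and 13% lower, 12 of 14 macrophage genes rose. Of the T cell genes 9 then rose and 1 fell, of 11 thymus genes 5 rose and 1 fell, 3 of 5 lymph node genes rose, 3 of 8 erythroid genes fell, and 11 cardiomyocyte genes fell and 1 rose.

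At the later ages these lists gave 2 calls. Cd8b1, a T cell coreceptor chain counted in both the T cell and the thymus list, fell by 2.02 (limma adjusted p = 0.036) and Madcam1, an adhesion molecule of high endothelium, fell by 1.50 (limma adjusted p = 0.046) in males of 13 weeks. Of the 14 T cell genes 12 had differences below 0 at 13 weeks (median log2 difference -0.58), 6 had an unadjusted limma p under 0.05, and 9 had 13-week arrays wholly below those of 3 weeks, against 6.26% of all probe sets. Of the 12 thymus genes, some of them also in the T cell list, 4 had an unadjusted limma p under 0.05 and 5 were wholly below. The counts at an unadjusted p have no share of all probe sets beside them. None of the macrophage, erythroid and cardiomyocyte genes was called at 13 weeks, with 2, 1 and 2 at an unadjusted limma p under 0.05. At 40 weeks none of these genes was called, with 3 macrophage genes, 1 of lymph node and 1 erythroid gene at an unadjusted limma p under 0.05.

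The summed signals of 4 lists were lower in males of 13 weeks than of 3 weeks with no overlap. For T cell genes they were 3060 to 4220 against 4278 to 5163, for thymus genes 1529 to 1928 against 2279 to 2569, for plasma cell genes 13106 to 14745 against 14834 to 16821, and for lymph node genes 1844 to 3068 against 3107 to 3312. These sums are of linear signal, so the brightest genes of a list weigh most. No chance level is given for such separations, and the T cell and thymus lists share genes. Gene by gene, the plasma cell list had a median log2 difference of -0.14, with 0 of 15 called and 1 wholly below. The B lineage sums, 6324 to 6968 against 6644 to 7677, and the macrophage sums, 45901 to 61884 against 48205 to 58701, overlapped. None of the lists named here had higher sums at 13 weeks without overlap.

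In females the sums of 40 and 3 weeks overlapped for B lineage genes, at 5199 to 7916 against 5554 to 6576, and for plasma cell genes, at 11193 to 16645 against 13414 to 16514. They also overlapped for macrophage genes, at 41314 to 48671 against 46717 to 49293, and for the T cell, thymus and lymph node lists. Those of the 9 Fc and transport receptor genes, at 1536 to 2002 against 2108 to 2340, were lower at 40 weeks. The part of these cells in the immunoglobulin rises was not tested.

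**Figure D4:**
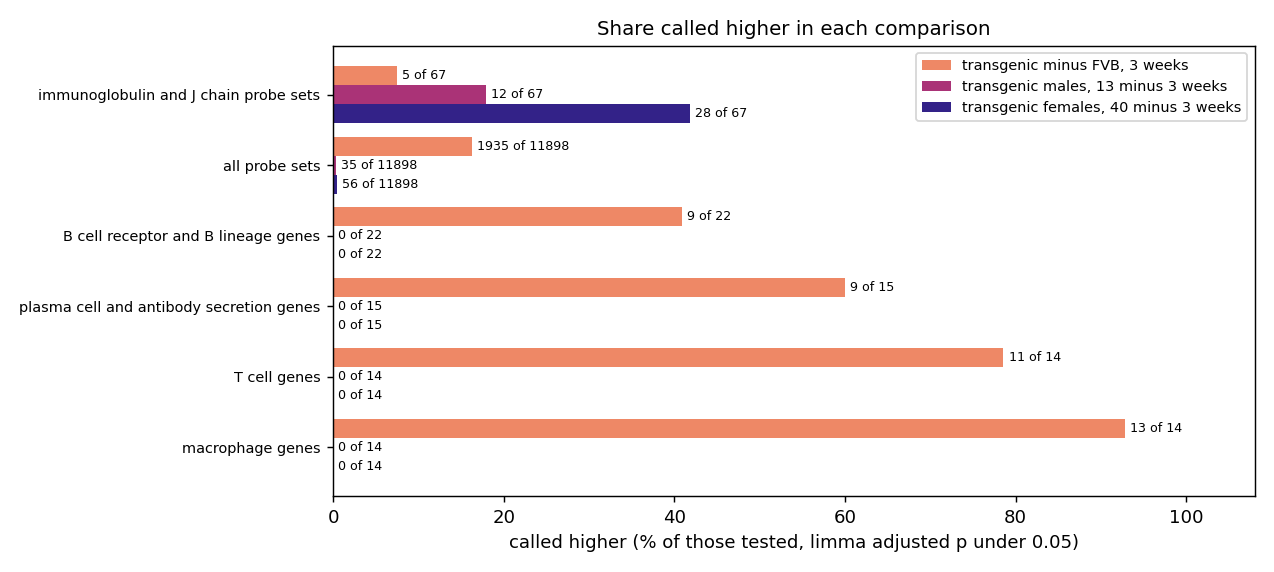
Share of probe sets or genes called higher in limma (adjusted p under 0.05, horizontal axis in percent, counts beside the bars) in 3 comparisons, for the immunoglobulin and J chain probe sets, all probe sets and 4 lists of marker genes. Immunoglobulin calls were 5, 12 and 28 of 67 for genotype at 3 weeks, age in males and age in females. The comparisons differ in kind, so these counts are not a progression. Of all probe sets, 16.3%, 0.294% and 0.471% were called higher. The marker lists have rises between genotypes at 3 weeks and 0 rises at the later ages, where 0 in a short list is near the background. The immunoglobulin probe sets are not independent of each other.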

How the data were processed

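The deposited table holds 1 intensity (signal) per probe set and array, as the authors deposited it. Its linear scale and near-equal trimmed means (499.2 to 499.9) were read from the values, and the software that made it is not given in the sources used here. Of 12488 probe sets, 66 controls were left out. Symbols come from GEO's platform annotation, with 10833 probe sets of 1 symbol, 396 of several and 1193 of none. Signals were floored at 44.675, the 25th percentile of all values, and taken to log2, and the 524 probe sets at the floor on every array were left out, with no other filter. One limma fit (version 3.58.1, R 4.3.3) with a mean for each of 6 groups over 17 distinct arrays had 11 residual degrees of freedom and a prior of 2.31. Tests were two-sided, and p-values were adjusted by Benjamini-Hochberg over all 11898 probe sets, with calls at 0.05. "At least" folds set a group wholly at the floor to the floor. The fit was tested on simulated data.

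Named with values were the heavy constant, Igkc, Iglc and Jchain probe sets of 1 symbol, the called ones (the 6 highest and 6 lowest where over 12 were called) and the brightest of each class. The members and the lists of other genes were chosen with earlier results of these data known. Alternatives changed the floor, an added constant, filter, normalisation, variance model, arrays fitted, identical columns and replicate block, and left out each array, and 1 alternative without 3 FVB arrays was added after the data were seen. The number of arrays limits the precision.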

Additional observations from a re-analysis of the deposited data

Results flagged for a closer look

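Single arrays stood apart from the rest of their genotype at 3 weeks in 30 cases, by Dixon's test of a gap against the range, which chance gives in about 1 of 20 groups. The test was run on floored values of named probe sets, in 68 groups of arrays. In 19 of the 30 cases 1 array alone was above the floor, so that its gap is the whole range whatever its size, and the test says nothing about them (the values 45.0 and 45.2 are examples, against a floor of 44.675). That leaves 11 cases among 49 groups. FVB female replicate 1 was the high array among 5 FVB arrays in 6 of these 11, and in 21 of all 30 cases. The 21 are listed as flagged, including those about which the test says nothing. Its signals were, for Ighm, 123.5 (100362_f_at), 48.9 (101276_at), 107.0 (101346_at), 80.3 (101870_at), 50.9 (101871_f_at), 121.4 (96966_at), 283.7 (97568_at), 272.8 (97577_f_at) and 86.9 (99420_at). For Ighg3 they were 61.0 (101752_f_at), 64.9 (102723_at), 141.8 (93927_f_at) and 64.7 (97574_f_at), for Igha 175.0 (161486_f_at), and for the probe sets of several heavy chain symbols 69.3 (97575_f_at) and 2799.0 (99421_at). For kappa segments they were 173.7 (Igkv15-103 101330_f_at), 47.6 (Igkv6-14 101331_f_at), 66.1 (Igkv10-96 102155_f_at), 131.4 (Igkv6-23 102156_f_at) and 45.0 (96964_at). The same array had the fewest probe sets at the floor, and the part of that in these signals was not tested.

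FVB female replicate 3 was high for Ighg3 102721_at at 146.8. Among the 6 transgenic arrays, male replicate 1 was high for Ighm 101346_at (62.0), 102159_at (45.2) and 96966_at (47.0) and Ighg3 93927_f_at (50.2), and low for Igkv4-68 102076_at (28.9). Male replicate 2 was high for Ighm 97568_at (83.9), female replicate 1 was high for Ighg3 102722_g_at (53.4), and female replicate 2 was low for Ighm 93584_at (353.0).

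For Igha 100583_at the difference between genotypes was lower in females than in males by a log2 contrast of -3.01 (limma adjusted p = 0.039). This call held in 4 of 17 fits with an array left out. It was lost without the 3 doubted FVB arrays (limma adjusted p = 0.24), 2 of which are labelled male and had high Xist signals.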

How the results depend on the processing

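Among 1518 refits of 55 named log2 differences none turned its sign, 1234 stayed on the same side of the threshold and 284 lost their call. These 55 were picked for being called in the same data, so a call could only be kept or lost. A kept sign was thus likely beforehand, and these counts are a description. Counts of called immunoglobulin probe sets moved by over 1.5 times as follows. For the genotypes at 3 weeks (12 called) the count was 0 with array weights, 7 with a floor at the 40th percentile, and 7 to 28 with an array left out. In females (12) it was 0 with array weights, 26 with both identical columns kept, 5 with the higher floor, 22 with log2 of signal plus 50, 1 in a fit of the compared groups alone, 2 without the 3 doubted FVB arrays and 3 to 27 with an array left out. For the sex contrast (1) it was 0 with array weights, the brightest 60% of probe sets, the higher floor, plus 50, the compared groups alone, quantile normalisation, the replicate block and without the 3 doubted FVB arrays, and 0 to 23 with an array left out. At 13 weeks (12) it was 20 with array weights, 19 with plus 50 and 2 to 19 with an array left out. At 40 weeks (28) it was 17 with the brightest 60%, a filter that 24 of the 70 pass, of which 16 were among the 28, and 11 in the compared groups alone. For the difference of the age changes (0) it was 0 to 1. The causes were not tested. Where 1 array of a group was left, it was assumed to vary like the other groups. Quantile normalisation moved the median of all probe sets from -0.24 to -0.05 in females at 3 weeks.

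Whether replicate numbers pair the arrays is not settled by their correlations, for which no chance level was computed. Of 40 same-number pairs 15 correlated over 0.1 (range -0.27 to 0.42). Of 17 arrays, 9 correlated best with an array of their own number. With the replicate block the counts were 11 (genotypes at 3 weeks), 8 (females), 7 (males), 0 (sex contrast), 10 (13 weeks), 26 (40 weeks) and 0 (difference of age changes).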

Other observations

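Another 8 probe sets carry a bare kappa locus symbol (Igk), a symbol from outside these loci or an older heavy chain name, and fall outside the rule. None was called higher in the 7 comparisons fitted. At 3 weeks 101332_at (Igk) fell by 0.43 on the log2 scale in transgenic hearts (limma adjusted p = 0.0074), and by 0.85 in females (limma adjusted p = 0.0022). Of these, 101616 (Igkv16-104 and Igk) had signals of 85.7, 471.6 and 165.7 at 40 weeks, 101633 (Igk and Asb2) of 96.2, 1815.6 and 482.5, and 96975 (Igk and Igkv1-117) of 105.8, 305.1 and 420.5. In each of them replicate 1 was the lowest of the 3 females.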
